A study of Mus musculus with 6 samples.

Results

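Glucose uptake and glycolysis were examined through 10 named genes, out of 55341 gene symbols in the count table, in individually sequenced olfactory sensory neurons, the cells that detect odours in the nose. The 10 genes, taken by name, are the glucose transporters Slc2a1 and Slc2a3, the aldolases Aldoa and Aldoc, the phosphoglycerate kinase Pgk1, the enolases Eno1 and Eno2, the pyruvate kinase Pkm and the lactate dehydrogenases Ldha and Ldhb. All 10 were found in the table. The samples are 6 neurons (OSN1 to OSN6) of wild type C57BL/6 mice aged 6 weeks, frozen 1 by 1 after a physiological recording, with a CEL-Seq2 library made from each. CEL-Seq2 primes at the poly(A) tail and counts the 3′ ends of transcripts. The cells form 1 group without a treatment or a control, and neither the animals nor what was recorded is named in the labels, so differences between cells have no replicate check. Column totals ran from 8613 counts in OSN1 to 122546 in OSN3, and 2855 to 11670 genes had a count. A count was therefore worth 116 CPM (CPM is the count as a share of the cell's total, scaled so that each cell sums to the same value) in OSN1 and 8.16 CPM in OSN3. All intervals are exact 95% intervals and cover counting error only.

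Glycolysis splits glucose into pyruvate in the cytosol and yields ATP without oxygen, and lactate dehydrogenase then exchanges pyruvate and lactate. Several steps have paired isozymes, a general form and a form known from neurons or brain. Eno2, the neuron-specific enolase, is known to take over from Eno1 as neurons mature. Tetramers rich in the Ldhb subunit are typical of tissues that use lactate, those rich in Ldha of tissues that release it, and Slc2a3 (GLUT3) is the main glucose carrier of neurons while Slc2a1 (GLUT1) serves most cells and the walls of brain vessels. Glycolytic enzymes have been found in the cilia of olfactory neurons, where odour transduction consumes ATP.

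The cells carried the markers of their labelled type, beside RNA of other cell types. Mature olfactory neuron genes (6 of 6 found, 5 in every cell) summed to 13251 to 26472 CPM, led by Omp, the olfactory marker protein, and Stoml3, a protein of the olfactory cilia (medians 6161 and 5733 CPM). Markers of other cell types were uneven. Red blood cell genes (4 of 5 found) ran from 171 CPM in OSN6 to 12610.4 CPM in OSN4, with Alas2 at 0 in every cell. Gland genes (5 of 5 found) ran from 0 in OSN6 to 20390 CPM in OSN2. In OSN2 the gland sum thus exceeded the mature neuron sum of that cell (15140 CPM). In OSN4 the red blood cell sum was close to the mature neuron sum (13251 CPM). Immature neuron markers (3 of 4 found) had 49.0 to 1535 CPM, sustentacular cell markers (3 of 5) 85.3 to 841 CPM and ensheathing glia markers (4 of 4) at most 163 CPM. Immune (2 of 5) and endothelial markers (1 of 3) had at most 49.0 and 16.4 CPM, and the 3 basal cell markers Krt5, Krt14 and Trp63 had no count in any cell.

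Of the 10 genes, Pkm, Eno1, Aldoa and Ldhb were counted in 6 of 6 cells. Together they gave 877 of the 925 counts of the 10 genes (94.8%). Eno2, Ldha, Slc2a1, Slc2a3, Aldoc and Pgk1 had 14 counts or fewer each over all cells. The neuronal form prevailed among lactate dehydrogenases, where Ldhb gave 92.2% of the pooled counts, but not among enolases, where Eno2 gave 5.10%, and both glucose transporters were near or under the limit of detection. Genes with a count in every cell made up 1.5% of the table, 8.5% of the 9760 genes averaging 10 CPM or more and 88.0% of the 183 genes averaging 500 CPM or more, the class of the 4 abundant genes.

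**Figure D1:**
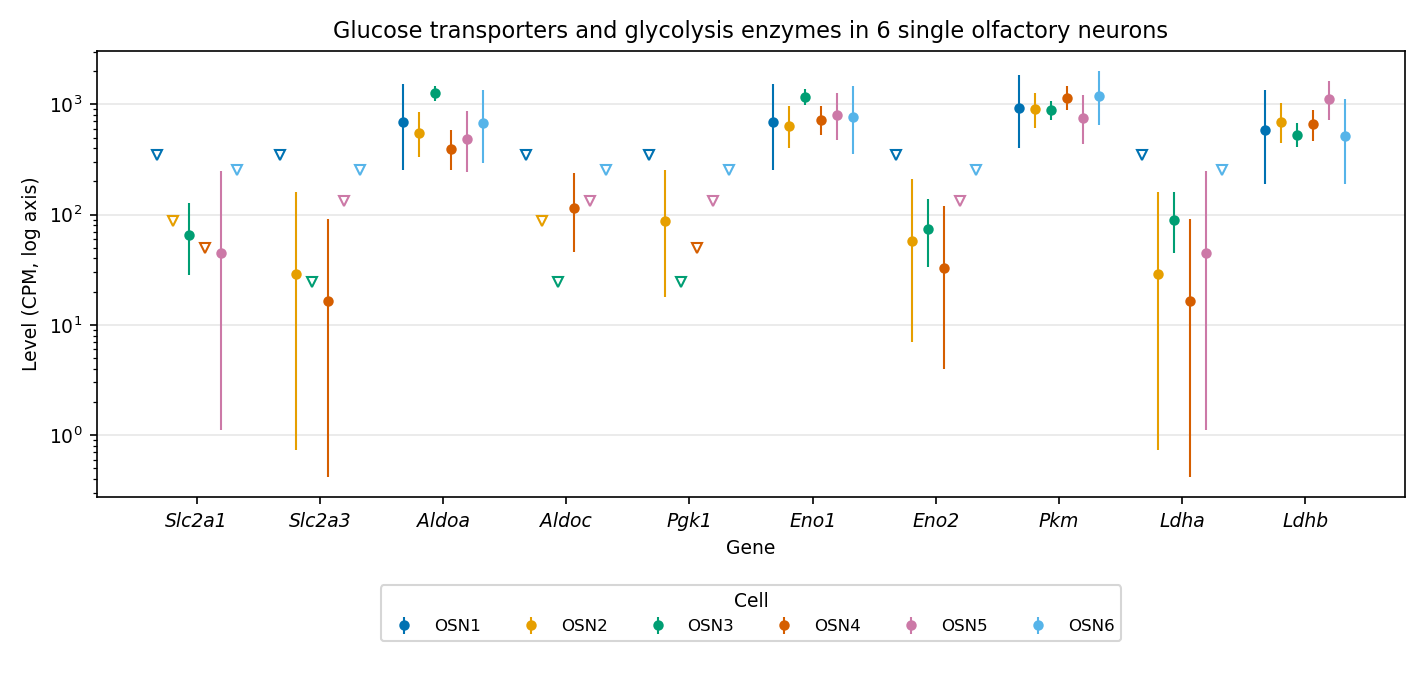
Level of the 10 genes in each of the 6 cells, in CPM on a log axis, with exact 95% Poisson intervals; an open triangle marks a cell without a count and is drawn at the level that 3 counts would give there. Aldoa, Eno1, Pkm and Ldhb lie between 394 and 1256.7 CPM in every cell, and the other 6 genes lie at 115 CPM or lower or have no count.

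To show how far an enolase pair differs, the last 90 coding bases of both genes are given from the GENCODE M21 transcripts of GRCm38, 5′ to 3′ and ending with the stop codon. Capitals in Eno2 mark the bases that differ from Eno1.
Eno1: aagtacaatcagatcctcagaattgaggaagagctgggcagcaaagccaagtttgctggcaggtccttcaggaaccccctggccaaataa
Eno2: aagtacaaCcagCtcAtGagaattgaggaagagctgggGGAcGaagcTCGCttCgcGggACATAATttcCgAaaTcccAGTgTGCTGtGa
Of these 90 bases 33 differ, and over the whole coding sequence of 1305 bases 325 differ (75.1% identical). Reads of Eno1 and Eno2 can thus be told apart. Cutting the final 1000 bases of the Eno2 transcript into all stretches of 50 bases, 0.736% of these windows occur in a transcript of another gene. Eno1 is different in this respect, since 72.5% of its windows do, chiefly in the near-identical gene Eno1b, whose coding sequence differs from that of Eno1 at 8 of 1305 bases.

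Enolase converts 2-phosphoglycerate to phosphoenolpyruvate. Eno1, the general form, lies on chromosome 4 of GRCm38 (150236721 to 150248879, plus strand) and had 6, 22, 143, 44, 18 and 9 counts in OSN1 to OSN6. Its level was 697, 638, 1167, 722, 799 and 768 CPM. OSN3 was highest, and its interval (983 to 1375 CPM) overlapped those of OSN1, OSN5 and OSN6 but lay above those of OSN2 (400 to 966) and OSN4 (525 to 970). Eno2, the neuron-specific form, lies on chromosome 6 (124760053 to 124769673, minus strand) and had 0, 2, 9, 2, 0 and 0 counts. That is 58.0, 73.4 and 32.8 CPM in OSN2, OSN3 and OSN4, whose intervals overlap. In OSN1, OSN5 and OSN6 the absence of Eno2 says little, since 3 counts are 348, 133 and 256 CPM there.

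Within each cell the library depth cancels, so the share of Eno2 in both enolases is the firmer measure. It was 5.92% in OSN3 (9 of 152 counts, Clopper-Pearson interval 2.74% to 10.9%), 4.35% in OSN4 (2 of 46, 0.531% to 14.8%) and 8.33% in OSN2 (2 of 24, 1.03% to 27.0%). It was 0 of 6, 0 of 18 and 0 of 9 in OSN1, OSN5 and OSN6, which allows up to 45.9%, 18.5% and 33.6%. In every cell the upper bound lay under 50%, so Eno1 led Eno2 beyond counting error in 6 of 6 cells. Pooled, Eno1 was counted 18.6 times as often as Eno2 (10.7 to 35.5). Divided by the exon length of each gene (5379 and 4705 bases), the pooled levels were 173 CPM per kb for Eno1 and 10.6 CPM per kb for Eno2, an Eno2 share of 5.79%.

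The count of Eno1 itself is uncertain because of Eno1b. Eno1b, the near-identical copy on chromosome 18, had 10, 31, 130, 45, 19 and 9 counts, in all 244 against 242 of Eno1 (50.2% of both, 45.7% to 54.7%). The interval of its share held 50% in each of the 6 cells. How reads that fit both genes were assigned, or whether such reads were counted at both, is not given in the sources used here. With Eno1b and the pseudogene Gm4735 added to Eno1, the share of Eno2 was 2.55% (1.36% to 4.32%). Enolase led by the general form thus holds with and without the copies.

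Lactate dehydrogenase showed the opposite order, with the form known from neurons and heart far above the general one. Ldhb, on chromosome 6 (142490249 to 142507957, minus strand), had 5, 24, 65, 40, 25 and 6 counts in OSN1 to OSN6. Its level was 581, 696, 530, 657, 1110 and 512 CPM. OSN5 was highest (718 to 1638 CPM) and stood above OSN3 (409 to 676 CPM), while its interval overlapped those of the other 4 cells. Ldha, on chromosome 7 (46841475 to 46855627, plus strand), had 0, 1, 11, 1, 1 and 0 counts. OSN3 held 11 of its 14 counts and had 89.8 CPM (44.8 to 161), against 16.4 CPM (0.416 to 91.5) in OSN4, the next deepest cell. The ratio of OSN3 to OSN4 was 5.47, with an interval (0.795 to 235) that includes 1.

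The share of Ldhb in both subunits was 100% in OSN1 (5 of 5 counts, 47.8% to 100%), 96.0% in OSN2 (24 of 25, 79.6% to 99.9%), 85.5% in OSN3 (65 of 76, 75.6% to 92.5%) and 97.6% in OSN4 (40 of 41, 87.1% to 99.9%). In OSN5 it was 96.2% (25 of 26, 80.4% to 99.9%) and in OSN6 100% (6 of 6, 54.1% to 100%). The lower bound was above 50% in 5 of 6 cells, OSN1 with its 5 counts being the exception. OSN3 had the lowest share, but its interval overlapped that of each other cell. Pooled, Ldhb was counted 11.8 times as often as Ldha (6.83 to 22.0), and 33.3 times (11.1 to 164) without OSN3, which gave most Ldha counts. Per exon length (1570 and 3310 bases) the pooled levels were 403 CPM per kb for Ldhb and 16.2 CPM per kb for Ldha, an Ldhb share of 96.1%. Ldhb too has a copy: the processed pseudogene Gm5514 holds 33.1% of its 50-base windows and had 58 counts, 26.0% of both (20.4% to 32.3%). Adding Gm5514 to Ldhb, with the Ldha pseudogene Gm5452 at 0 counts, gave an Ldhb share of 94.1%.

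**Figure D2:**
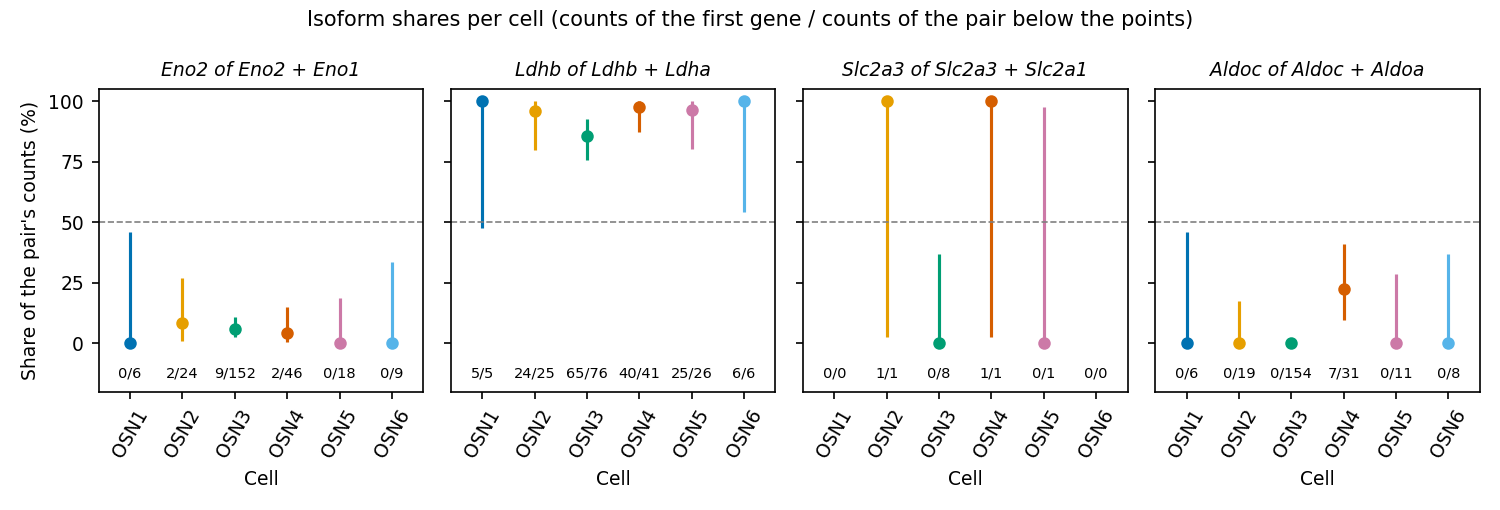
Share of the first-named gene in the counts of each pair, in percent, for each of the 6 cells with exact 95% Clopper-Pearson intervals; the counts stand below the points, the dashed line is 50%, and a cell without a count of the pair has no point. Eno2 stays at 8.33% or lower and Ldhb at 85.5% or higher, while the Slc2a3 share rests on 8 counts or fewer in each cell.

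Glucose transporters were scarcely counted. Slc2a1, on chromosome 4 (119108711 to 119137983, plus strand), had 8 counts in OSN3 (65.3 CPM, 28.2 to 129), 1 in OSN5 (44.4 CPM, 1.12 to 247) and 0 in the other 4 cells. Slc2a3, on chromosome 6 (122727809 to 122801640, minus strand), had 1 count in OSN2 (29.0 CPM) and 1 in OSN4 (16.4 CPM). In OSN3, the deepest cell, a count of 0 limits Slc2a3 to 24.5 CPM at 3 counts, while Slc2a1 was counted 8 times there. The share of Slc2a3 was 0 of 8 in OSN3 (up to 36.9%), and over all cells 2 of 11 (18.2%, 2.28% to 51.8%), an interval that includes 50%. The order rests on OSN3: without it Slc2a3 had 2 counts and Slc2a1 had 1 (66.7%, 9.43% to 99.2%). Per exon length (7245 and 3506 bases) the pooled levels were 1.06 CPM per kb for Slc2a3 and 9.84 CPM per kb for Slc2a1.

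Slc2a1 is also known from vessel walls, so blood and vessel markers are given beside it. Whether red blood cells of these mice carry Slc2a1 is not given in the sources used here, so nothing is read from their sums. OSN4 had the highest red blood cell sum (12610.4 CPM) and no Slc2a1 count (up to 49.3 CPM at 3 counts), while OSN3 and OSN5 had 4080.1 and 2575 CPM. The endothelial marker Pecam1 had 2 counts in OSN3 and 1 in OSN4, and Cldn5 and Kdr had none. The part of such cells in the Slc2a1 counts was not tested. Neither transporter shares a 50-base window with another gene, and the antisense gene Gm12868, whose exons overlap those of Slc2a1, had no count. Of 5 further transporters, Slc2a2, Slc2a4, Slc2a8, Slc2a10 and Slc2a12, 3 were found, with 3 counts of Slc2a10, 2 of Slc2a12 and 1 of Slc2a8.

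Aldolase, which cleaves fructose-1,6-bisphosphate, was counted as the general form Aldoa. Aldoa, on chromosome 7 (126795234 to 126800751, minus strand), had 6, 19, 154, 24, 11 and 8 counts, or 697, 551, 1257, 394, 488 and 682 CPM. OSN3 was highest (1066 to 1472 CPM), and its interval lay above those of OSN2, OSN4 and OSN5 and overlapped those of OSN1 and OSN6. OSN3 exceeded OSN4, the lowest cell, by a ratio of 3.19 (2.07 to 5.13). Aldoc, the brain form known from astrocytes and Purkinje cells, lies on chromosome 11 (78322968 to 78327781, plus strand) and had 7 counts in OSN4 (115 CPM, 46.2 to 237) and 0 in the other 5 cells.

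The Aldoc share was 22.6% in OSN4 (7 of 31, 9.59% to 41.1%) against 0 of 154 in OSN3 (up to 2.37%), and those intervals did not overlap. OSN4 was singled out by these same counts, as the only cell with Aldoc, so no difference between cells is read from them. In OSN1, OSN2, OSN5 and OSN6 the upper bounds were 45.9%, 17.6%, 28.5% and 36.9%, which all overlap OSN4. Pooled, Aldoa was counted 31.7 times as often as Aldoc (15.1 to 79.8), 9.71 times (4.47 to 25.1) without OSN3, and without OSN4 no Aldoc count stood against 198 of Aldoa. Per exon length the pooled levels were 229 CPM per kb for Aldoa (3710 bases) and 8.23 CPM per kb for Aldoc (3263 bases). The summed level of the ensheathing glia markers was 131 CPM in OSN4 and 163 CPM in OSN3, where Aldoc had no count. Sustentacular markers had 624 CPM in OSN4 and 841 CPM in OSN2, where Aldoc had no count, and their part in the Aldoc counts was not tested. Aldoa shares 21.1% of its windows with other genes. The largest part, 9.88%, is shared with the protein-coding gene Aldoart1, which had 1, 2, 12, 1, 2 and 2 counts in OSN1 to OSN6. The pseudogene Aldoa-ps4 (1.58% shared) had 45 counts in OSN3 and 8 in OSN4.

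Pyruvate kinase makes pyruvate and ATP from phosphoenolpyruvate. Pkm, on chromosome 9 (59656368 to 59679375, plus strand), had 8, 31, 108, 70, 17 and 14 counts, or 929, 899, 881, 1149, 755 and 1194 CPM. Its 6 intervals all overlapped. Its splice forms M1 and M2 cannot be separated in counts per gene. The gene Gm49759 overlaps 767 of its exon bases on the same strand and had no count. By median CPM, Pkm, Eno1, Ldhb and Aldoa stood at positions 79, 95, 114 and 115 of all genes, on a scale that takes no account of length. Divided by exon length the medians were 394 CPM per kb for Ldhb (326 to 707), 183 for Pkm (151 to 239), 166 for Aldoa (106 to 339) and 139 for Eno1 (119 to 217). On that scale the ranges of Pkm, Aldoa and Eno1 overlapped, and Ldhb, the shortest of them, lay above Pkm and Eno1 in every cell. Counts of transcript ends need not grow with exon length, so the order of these 4 genes depends on the scale and none is read from it.

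Phosphoglycerate kinase, the first ATP-making step of the pathway, was nearly absent from the counts. Pgk1, on the X chromosome (106187100 to 106203699, plus strand), had 3 counts in OSN2 (87.0 CPM, 17.9 to 254) and 0 in the other 5 cells, and Pgk2 had no count. In OSN3 and OSN4 a count of 0 limits Pgk1 to 24.5 and 49.3 CPM at 3 counts. In OSN1, OSN5 and OSN6 that limit is 348, 133 and 256 CPM, so a count of 0 says little there. OSN2 also had the highest gland sum (20390 CPM), and the part of such RNA in the Pgk1 counts was not tested. The processed pseudogene Gm5537 holds 55.6% of the Pgk1 windows and Pgk1-rs7 a like share, and both had 0 counts in every cell. Whether reads that fit several genes were dropped is not given in the sources used here. A loss of Pgk1 reads in this way was not tested. No exon of another gene overlaps those of Pgk1.

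The genes of the other steps were taken from a list of 18 further isozymes, of which 11 were found and 3 (Eno1b, Pgam1 and Tpi1) in every cell. By step, the median sum was 51.2 CPM over 7 glucose transporters, 91.1 CPM over 4 hexokinases, which trap glucose, and 114 CPM over 3 phosphofructokinases, which commit it to the pathway. Gpi1, the glucose-6-phosphate isomerase, had a median of 278 CPM, aldolase 617 CPM, the phosphoglycerate mutase Pgam1 242 CPM, enolase (with Eno1b) 1633 CPM, pyruvate kinase 914 CPM and lactate dehydrogenase 647 CPM. Tpi1, the triosephosphate isomerase, had 10 counts over 6 cells (median 64.8 CPM). Per kb of exon the medians were 12.4 for the transporters, 10.7 for the hexokinases, 15.0 for the phosphofructokinases, 43.1 for Gpi1 and 23.6 for Tpi1. They were 166 for aldolase, 122 for Pgam1, 612 for enolase, 183 for pyruvate kinase and 397 CPM per kb for lactate dehydrogenase. The enolase sum may hold reads counted at both Eno1 and Eno1b. Eno1 alone had a median of 745 CPM (139 CPM per kb), below that of pyruvate kinase, so the rank of enolase among the steps is not read. On both scales the transporters, hexokinases and phosphofructokinases lay below aldolase, enolase, pyruvate kinase and lactate dehydrogenase, while among the later steps phosphoglycerate kinase had a median of 0 and Tpi1 was low in CPM as well.

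**Figure D3:**
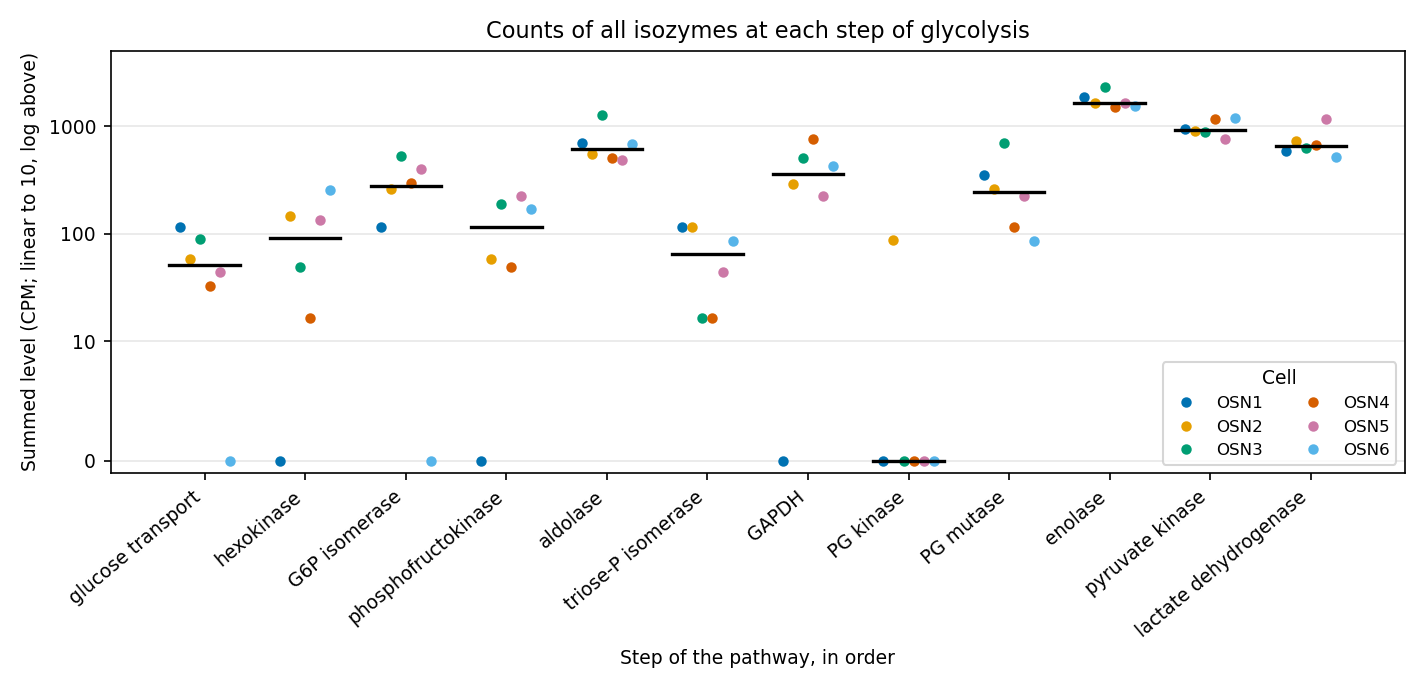
Summed CPM of the isozymes of each step, from glucose transport to lactate dehydrogenase, in each of the 6 cells (points) with the median (black line); the axis is linear up to 10 CPM and logarithmic above. Enolase, pyruvate kinase, lactate dehydrogenase and aldolase lie at 488 CPM or more in every cell, and phosphoglycerate kinase is at 0 in 5 cells.

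Gapdh, the step between triosephosphate isomerase and phosphoglycerate kinase, had 0, 10, 62, 46, 5 and 5 counts (median 358 CPM). A further 1685 counts stood at 83 annotated pseudogenes that share at least 10% of its 50-base windows, against 128 at Gapdh itself. The protein-coding copies Gm10358 and Gm3839 had 120 and 148 counts. With the pseudogenes the median of this step was 4741 CPM in place of 358, and with the protein-coding copies as well 5731 CPM. The gene at the named locus therefore gives no level of Gapdh RNA here, and the sum may hold reads counted at more than 1 copy.

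**Figure D4:**
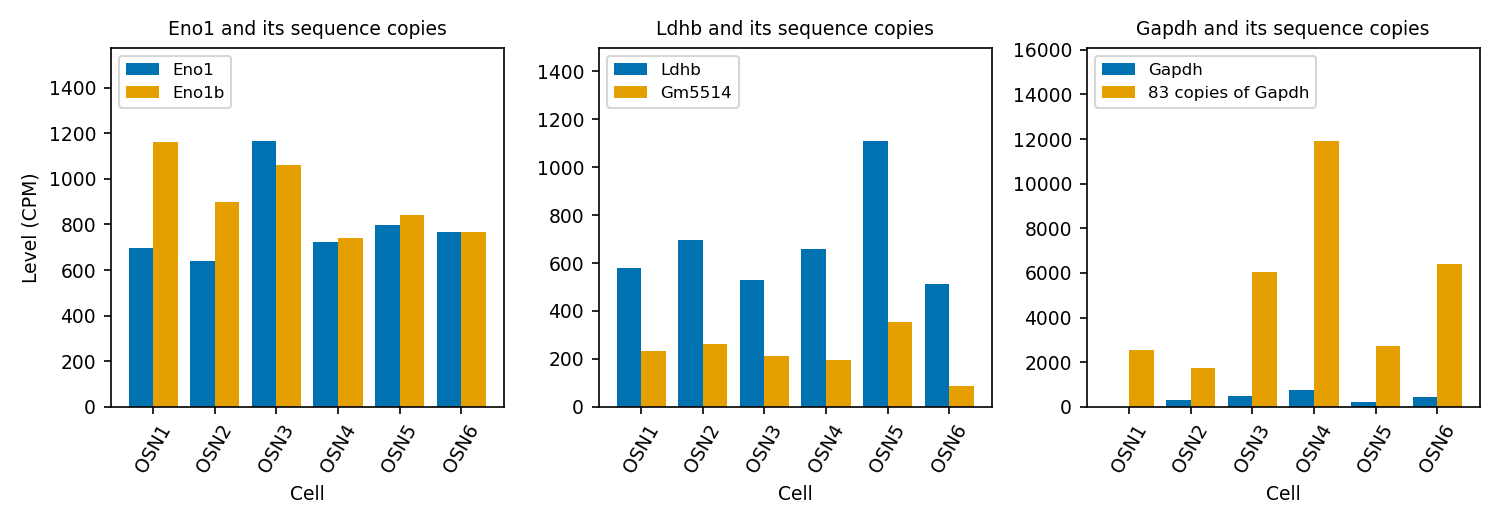
Level in CPM of Eno1, Ldhb and Gapdh (blue) and of their sequence copies (orange) in each of the 6 cells, on linear axes of different height. Eno1 and Eno1b are close in height, Gm5514 is lower than Ldhb in every cell, and the 83 pseudogene copies of Gapdh hold more counts than Gapdh in every cell.

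Pyruvate and lactate handling genes were found in 9 of 13 cases, with sums of 725 to 1297 CPM. Bsg, the chaperone of lactate carriers, was in every cell (median 306 CPM), followed by Pdhb, a subunit of pyruvate dehydrogenase (117 CPM), and the mitochondrial pyruvate carrier genes Mpc1 (81.9 CPM) and Mpc2 (43 counts over 4 cells). The lactate carriers Slc16a1 and Slc16a3 had no count in any cell, and Slc16a7, the carrier known from neurons, had 6 counts over 4 cells. Of 6 regulators 4 were found, Hif1a with 10 counts over 3 cells and Tigar, Pfkfb2 and Pfkfb3 with 2 or fewer.

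Promoters are shown for the lactate dehydrogenase pair, the pair in which the neuronal form led. The motif is ACGTG, a form of the core of the hypoxia response element. It was searched on both strands (ACGTG and CACGT, overlapping matches merged) and set in capitals. GCGTG, another form of that core, was not searched and occurs in lower case in both printed windows. The windows run from 250 bases before to 50 after a start site and come from RefSeq, build GRCm38.p6.
Ldha, chr7:46845554-46845853, plus strand: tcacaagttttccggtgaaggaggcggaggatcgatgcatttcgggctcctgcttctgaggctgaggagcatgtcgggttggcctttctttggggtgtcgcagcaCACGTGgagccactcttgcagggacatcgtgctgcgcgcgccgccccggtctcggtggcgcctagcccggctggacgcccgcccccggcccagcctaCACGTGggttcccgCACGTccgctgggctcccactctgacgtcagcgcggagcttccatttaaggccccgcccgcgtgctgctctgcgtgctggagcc
Ldhb, chr6:142507908-142508207, minus strand: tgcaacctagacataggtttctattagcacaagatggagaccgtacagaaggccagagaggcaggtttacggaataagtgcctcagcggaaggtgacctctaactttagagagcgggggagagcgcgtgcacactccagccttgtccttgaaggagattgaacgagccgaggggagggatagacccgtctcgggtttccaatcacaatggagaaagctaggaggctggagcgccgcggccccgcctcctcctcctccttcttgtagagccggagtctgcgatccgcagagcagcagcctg
This Ldha window has 3 ACGTG sites and the Ldhb window none, and a second Ldha window (46846832 to 46847131) has none. Of the 9 members with a window 6 hold the motif in at least 1 (Aldoa, Aldoc, Ldha, Pgk1, Pkm and Slc2a1, but not Eno1, Eno2 or Ldhb), against 21.8% of all 27025 genes with a window. It occurs in 7 of the 16 member windows and in 19.6% of all 32851 windows. The members have more windows per gene than all genes, which favours them in a share with at least 1. The Aldoa windows that start at 126799129 and 126799205 overlap and hold the same site, so it is counted in both. These letters describe the windows only, since no binding was measured.

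Between cells, in CPM over all 6 cells, the 4 abundant genes varied less than, or about as much as, other genes of their class. The coefficient of variation (SD over mean of CPM, n = 6 cells) was 17.5% for Pkm, 23.7% for Eno1, 32.6% for Ldhb and 45.1% for Aldoa, against a median of 51.0% over the 183 genes averaging 500 CPM or more. The highest cell was over 2-fold of the lowest for Aldoa (3.19) and Ldhb (2.17) but not for Eno1 (1.83) or Pkm (1.58), while 92.9% of those 183 genes passed that fold. The class was set by the mean, so genes high in 1 cell enter it, such as the gland gene Obp1a (10267 CPM in OSN2). Of the 183 genes, 161 had a count in every cell. Such genes widen the spread of the class, and the members were not compared with neuronal genes alone. The spread of Pkm was no larger than counting error, with a dispersion index (observed over Poisson variance) of 0.978, against 9.28 for Aldoa, 2.93 for Eno1 and 2.14 for Ldhb. The median of this index over the 183 genes was 9.21. The evenness depends on the scaling and on the cells kept. With edgeR's TMM factors the coefficients were 32.9%, 51.7%, 42.7% and 73.6% for Pkm, Eno1, Ldhb and Aldoa. The class median was then 52.7%, so Aldoa was above its class. Aldoa was above it also with DESeq2 size factors (55.2% against 49.9%). In CPM it was above among cells of at least 20000 counts (58.7% against 42.5%) and without OSN6 (50.5% against 47.0%). In the other settings it was below, as in CPM over protein-coding nuclear genes (42.9% against 59.5%). The spread of Aldoa and Eno1 also rests on OSN3, without which it was 22.9% and 8.64%, and that of Ldhb on OSN5, without which it was 13.4%.

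Summed over the 10 genes, the level was 2903, 2987, 4064, 3103, 3241 and 3156 CPM in OSN1 to OSN6, with a median of 3129 CPM. OSN3 was highest (3715 to 4437 CPM), and its interval lay above those of OSN2 and OSN4. OSN3 was also the highest cell with TMM factors, DESeq2 size factors and CPM over protein-coding nuclear genes. It is the deepest library, and depth cannot be told apart from the cell here.

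Against the mean of the other 5 cells, on the log2(CPM + 10) scale, the 9 members averaging 10 CPM or more were compared (Slc2a3 had less). In OSN3 Aldoa, Eno2 and Ldha were over 2-fold higher, with log2 differences of 1.15, 1.57 and 1.83, as were 19.3% of all genes compared. Eno2 in OSN2 (background 14.5%) and Slc2a1 in OSN5 (24.4%) also passed that fold, on 2 counts and 1 count. Slc2a1 in OSN3, Pgk1 in OSN2 and Aldoc in OSN4 (25.3%) passed it too, but each reached the 10 CPM limit only through that cell, so the limit itself set the difference and nothing is read from it. No member passed in OSN1 or OSN6 (16.8% and 17.2%). Lower members numbered 5, 2, 2, 2, 3 and 5 in OSN1 to OSN6, against backgrounds of 69.9%, 44.6%, 29.9%, 34.4%, 44.7% and 72.2%. Each of those 19 was a gene at 0 counts whose mean in the other cells was at most 35.9 CPM, so no fold can be read from them. The median log2 difference of the 4 abundant genes lay between -0.24 (OSN2) and 0.26 (OSN3), where the 183 genes of their class had medians from -0.62 (OSN4) to 0.24 (OSN6).

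Aldoa and Eno1 were highest in the same cell (Pearson's r 0.77 over the 6 cells on log2 values), and the other 5 pairs of abundant genes had r from -0.66 (Pkm and Ldhb) to -0.17 (Aldoa and Pkm). With 6 points that share their library totals these values are descriptions. Among 826 other genes counted in every cell and averaging 50 CPM or more, those most like the summed level were Rab14 (r 0.87), Nav1 (0.86) and Flrt1 (0.84), over 6 cells. Nav1 had its highest level, 1297 CPM, in OSN3 as well.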

How the data were processed

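The authors deposited raw counts per gene symbol, 55341 genes in 6 columns with 1 column per cell, and no column was left unused. Per the labels' protocols, cell barcodes and molecular identifiers were read in read 1 and only read 2 was aligned. Per the submitters' processing notes, CASAVA, Bowtie2 2.3.4, HTSeq and build mm10 were used, without roles or order. What the sources used here do not give is the annotation, strand setting, treatment of reads with several alignments and collapse of molecular identifiers, so a count may be a molecule or a read, and intervals are too narrow if it is a read.

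Positions, exon unions and transcripts came from GENCODE M21 (GRCm38, which mm10 names), where all 55341 symbols were found. CPM, Poisson and Clopper-Pearson intervals were computed with scipy 1.17.1. A gene at 0 was limited by 3 counts. Shares of isoforms were taken per cell and pooled. Copies were pseudogenes, and for Eno1 the protein-coding Eno1b, holding at least 10% of the 50-base windows from the final 1000 bases of the transcript with the longest coding sequence. No test between cells was made, since each group would be 1 cell. Size factors came from edgeR 4.0.16 and DESeq2 1.42.0.

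All 10 members are named, with the 4 genes of highest median per pathway list (4 lists, 42 genes), the 3 genes most like the summed level and up to 2 per marker list (9 lists, 40 genes). Other genes named, and the 10% limit for copies, were chosen after values were seen. Members, lists and settings were chosen with earlier results of these data known. Alternatives were pooling, a minimum of 5 counts, exon length, copies, thinning to the shallowest cell (20 draws), other scalings, pseudocounts and filters, cells under 20000 counts left out, and each cell left out in turn.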

Additional observations from a re-analysis of the deposited data

Results flagged for a closer look

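Among 14 values examined over the 6 cells (the levels of the 10 genes, their sum and 3 isoform shares), 8 had 1 cell apart from the other 5 by Dixon's limit, which chance passes in about 1 of 20 groups of continuous values. Of the 11 values with a count in more than 1 cell, 5 were apart. The same limit was passed by 27 of the 183 genes averaging 500 CPM or more (14.8%). Of the 10 genes only Pkm, Eno1, Aldoa and Ldhb are in that class, and it holds no sum or share. The rates thus cover unlike sets. The sum and the shares are made from the same counts as the genes, so the 8 are not independent. OSN3 was apart for Aldoa (1256.7 CPM, next cell 697 CPM), for Eno1 (1167 CPM, next 799 CPM) and for the summed level of the 10 genes (4063.8 CPM, next 3241 CPM). It was also apart, on the low side, for the share of Ldhb in both lactate dehydrogenases (85.5%, next 96.0%). OSN5 was apart for Ldhb (1109.9 CPM, next 696 CPM). Aldoc in OSN4 (115 CPM, 7 counts; share 22.6%) and Pgk1 in OSN2 (87.0 CPM, 3 counts) had a count in 1 cell alone, where the limit is passed by construction. OSN3 is the deepest library, and the part of depth in these differences was not tested.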

How the results depend on the processing

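The Aldoc share (a median of 0) and the Slc2a3 share could not show stability. Of 62 other recomputed values of the main results, 54 moved by less than the spread between cells and 8 moved further. For counts of genes the limit was 1.5 times. Only the Eno2 and Ldhb shares could reverse, by crossing 50%, and none of them did. The summed level, 3129 CPM, became 4512 CPM over protein-coding nuclear genes, 3563 CPM with TMM factors and 4251 CPM with copies added. Leaving out 1 cell at a time gave 3103 to 3156 CPM. The number of members over 2-fold above the other cells, 8 over all cells (3 of them set by the 10 CPM limit), became 4 with a pseudocount of 50 CPM and ran from 4 (without OSN3) to 7 with 1 cell left out. The number below, 19, became 0 with that pseudocount and ran from 12 (without OSN2 or OSN4) to 16. Leaving out a cell also removes its own comparisons and can drop members under the 10 CPM limit. Both totals thus fall in part by construction, and those named without OSN3, OSN2 or OSN4 are among the 8 that moved further. The median Ldhb share, 96.9%, ran from 96.2% to 97.6% with 1 cell left out, the Eno2 share, 2.17%, from 0% to 4.35%, and the Slc2a3 share, 50% over 4 cells, from 0% to 100%, which is no estimate. Of 40 recomputed medians of the 4 abundant genes, 4 moved beyond the spread, all upward over protein-coding nuclear genes (Aldoa 958, Eno1 1069, Pkm 1401 and Ldhb 913 CPM). Depth limits the 6 sparse genes: thinned to 8613 counts, Ldha had a count in 1.45 and Slc2a1 in 0.700 of 6 cells on average. No paired analysis was possible because the cells form 1 group.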
